A study of Sus scrofa with 4 samples.

Results

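The genes described here are 42 listed genes of the extracellular matrix, the protein mesh between cells: 10 interstitial collagens, 10 basement membrane genes, 8 genes of proteoglycans and a linker protein, 8 glycoproteins and 6 enzymes and inhibitors. They were taken by gene symbol, and 40 of the 42 had an entry among the 21280 genes of the deposited count matrices. COL4A1, a chain of basement membrane collagen IV, and TIMP2, an inhibitor of matrix proteases, had no entry under their symbols. The reference table links COL4A1 to an entry that carries an identifier only, and its values are given beside those of its partner chain COL4A2.

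The study measured RNA in single cells of pig embryos and of pig endometrium, the inner lining of the uterus. There were 4 groups with 1 library each: embryo at day 9 of pregnancy, embryo at day 12, endometrium at day 9 and endometrium at day 12. No treatment, breed or genetic change is given in the labels, and all 4 groups came from pregnancy. The sources used here do not give how many animals or embryos went into a library or whether they were pooled. Embryos were dissociated with papain and dispase and endometrium with collagenases and dispase, both with DNase, and red blood cells were lysed. The enzymes therefore differ between embryo and endometrium, so tissue and dissociation cannot be told apart. With 1 library in each group, no difference between days has a replicate check, no test was run, and every 95% interval covers counting error only.

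Fibrillar collagens I, III and V form the load-bearing fibres of connective tissue, and small leucine-rich proteoglycans such as decorin and lumican bind those fibres and limit their width. Basement membranes are thin sheets of laminin, collagen IV, nidogen and perlecan that lie under epithelia and around vessels and muscle cells. Matrix metalloproteinases cut these proteins and the TIMP proteins inhibit them. In the pig the conceptus lengthens from a sphere to a filament in this period and attaches to the uterine surface without eroding it. The embryo at this stage holds trophectoderm (the outer layer), hypoblast (the inner lining that becomes yolk sac), epiblast (the source of the body) and the first extraembryonic mesoderm.

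After filters 7000, 6671, 7984 and 8962 cells were kept in the embryo of day 9, the embryo of day 12, the endometrium of day 9 and that of day 12. Deposited totals were 109449139, 66992264, 27250593 and 27589239 UMIs (molecules counted once each), in the same order, and kept cells had medians of 11883.5, 9297, 2639 and 2233 UMIs. Cells were clustered within each library without the members and without 119 other listed matrix genes, and clusters were named "X-like" from markers that include no matrix gene. Clusters are parts of 1 library and not replicates, so cluster ranges that overlap or stand apart describe spread within libraries only. Clusters that met no name held 26.557%, 8.32%, 10.709% and 4.597% of the cells of the 4 libraries, and comparisons of classes leave them out. Epiblast-like cells were named from 4 detected markers on day 9 and 3 on day 12, and extraembryonic mesoderm-like cells from 4 high markers of 7 detected. The larger smooth muscle or pericyte-like cluster of day 9 (314 cells) had 4 of 13 own and 7 of 14 stromal markers high. That of day 12 (215 cells) had 5 of 13 and 5 of 14, so this class is not cleanly apart from stromal-like cells. Doublets could not be called in 3 of the 4 libraries, where the caller marked under 0.5% of cells. Between 54 and 105 cell barcodes were shared by any pair of libraries, at most 1.331% of a library. Leaving out every cell whose barcode was kept in another library moved no member at 5 CPM or more by over 1.118 times in any named class.

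Levels are CPM, counts scaled to a common total, of the summed UMIs of a class in a library. In the 4408 stromal-like cells of day 9, members made up 6.3761% of all UMIs, and in the 5616 of day 12 they made up 7.3555%. Smooth muscle or pericyte-like cells followed with 2.9496% and 3.0656%. Blood endothelial-like cells had 1.0577% and 1.1226%, and epithelial-like cells 0.837% and 1.0227%. In hypoblast-like cells members took 0.4592% of UMIs on day 9 and 0.5634% on day 12, most of it in basement membrane genes (0.3604% and 0.3846%). Trophectoderm-like cells had 0.0679% and 0.0819%. Matrix RNA was thus mostly interstitial in the uterus and mostly of basement membrane type in the embryo, as the map of levels by class shows.

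**Figure D1:**
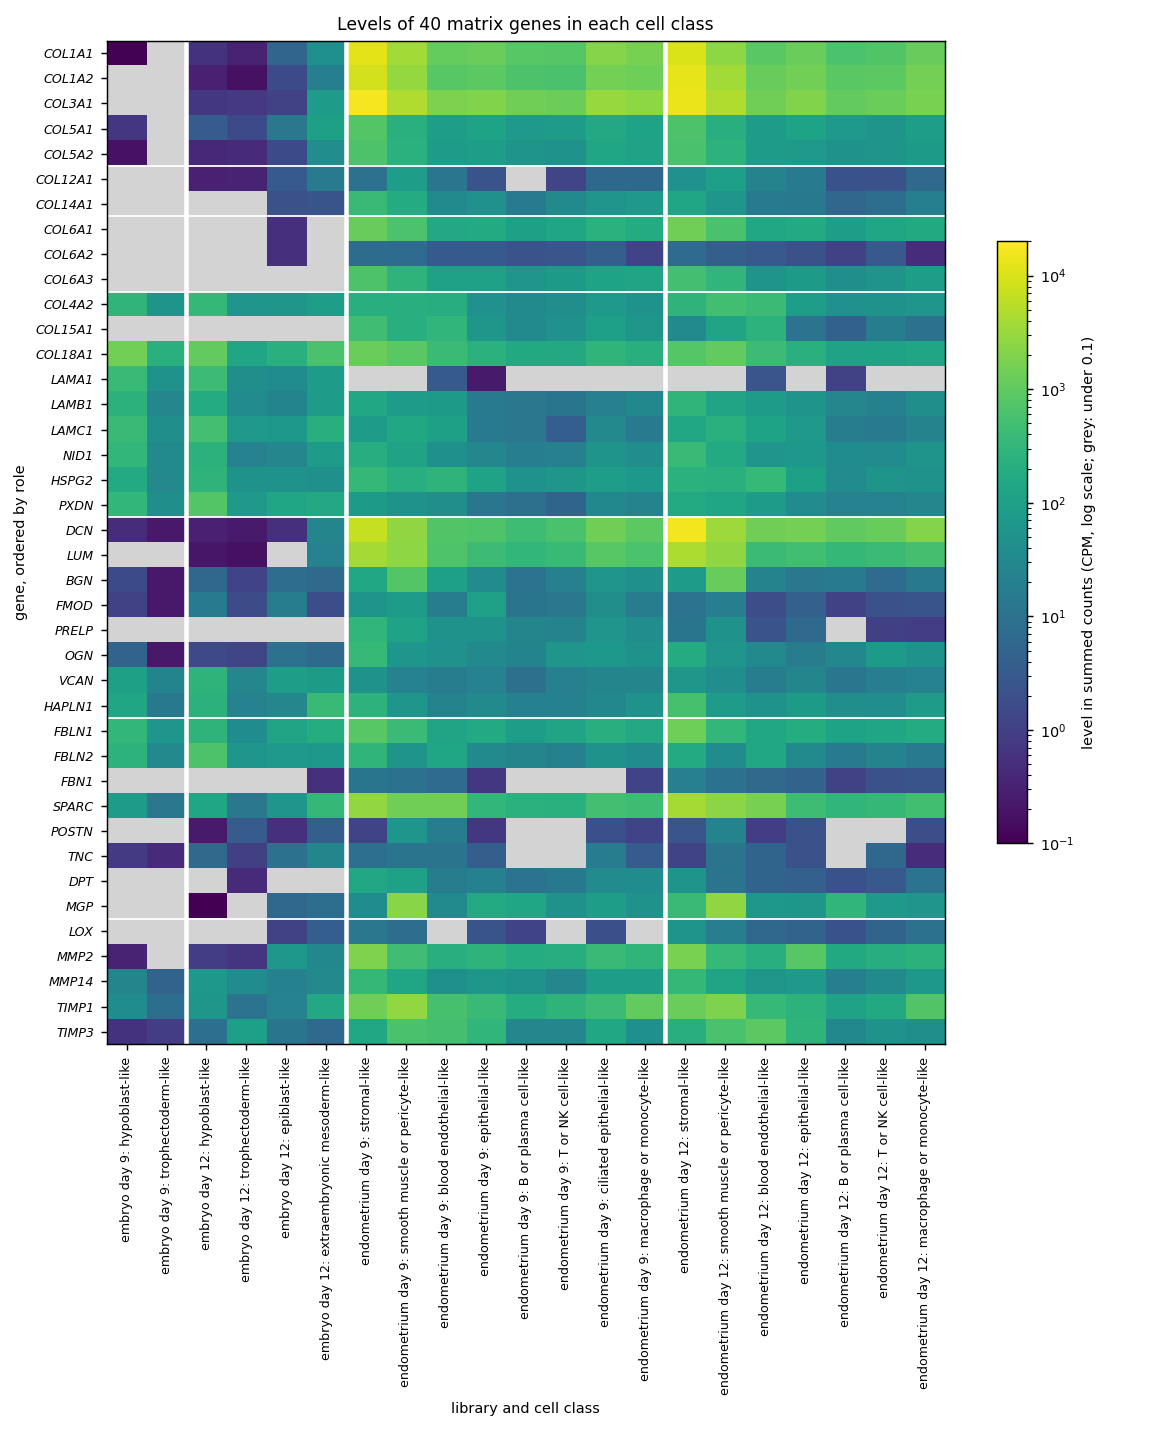
Level of each of the 40 members (vertical axis, grouped by role) in every named class of at least 50 cells in each library (horizontal axis), as colour on a log scale of CPM; grey marks levels under 0.1 CPM. COL1A1, COL1A2 and COL3A1 are at 8827 to 16629 CPM in stromal-like cells and under 1 CPM in hypoblast-like and trophectoderm-like cells, while LAMA1 is at 374.6 and 436.6 CPM in hypoblast-like cells and at most 3.15 CPM in the endometrial classes.

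RNA of abundant stromal genes was present in every endometrial class. T or NK cell-like cells, which are not known to make fibrillar collagen, held COL1A1 at 790.7 CPM on day 9 and 745.0 on day 12, against 12221 and 10194 CPM in stromal-like cells. Over the 32 members at 50 CPM or more in day 9 stromal-like cells, the level in T or NK cell-like cells had a median of 9.85% of the stromal level, with a range from 4.82% for LAMC1 to 40.33% for VCAN. On day 12 the median over 31 members was 9.58%. B or plasma cell-like cells had medians of 8.95% and 8.9%. Levels near these shares of the stromal level were therefore read as background in endometrial classes, with the T or NK cell-like level as the reference. The part of free RNA or of doublets in this background was not tested.

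The fibrillar collagens, which build the fibres, had their highest level in stromal-like cells on both days. COL1A1 and COL1A2 encode the chains of collagen I. COL1A1 was at 12221 CPM on day 9 and 10194 on day 12 in these cells, 1.199-fold lower (95% interval 1.19 to 1.21). COL1A2 was at 8827 and 12479 CPM, 1.41-fold higher (1.40 to 1.42). The chains of the same protein thus differed in opposite directions between days, each by less than 2-fold. The count ratio of COL1A2 to COL1A1 was 0.722 on day 9 and 1.224 on day 12 in stromal-like cells. It lay between 0.715 and 0.836 in all 8 named endometrial classes of day 9 and between 1.22 and 1.455 in all 8 of day 12, so the day ranges did not overlap. In T or NK cell-like cells the ratio was 0.756 and 1.256, and the part of background RNA in the spread over classes was not tested. COL3A1, the chain of collagen III, was at 16629 and 13943 CPM in stromal-like cells. COL5A1 and COL5A2, chains of the collagen V that starts fibrils, were at 761.9 and 660.4 CPM and at 663.8 and 604.3 CPM. Neither these nor the collagen VI chains COL6A1 (1148 and 1431 CPM) and COL6A3 (665.5 and 510.7 CPM) reached a 2-fold difference. COL6A2, another chain of that beaded-filament collagen, was low in every class, at 7.49 and 7.04 CPM in stromal-like cells.

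Across the 39 members at 5 CPM or more in some endometrial class, stromal-like cells had the highest level for 29 on day 9 and 25 on day 12. Smooth muscle or pericyte-like cells had it for 8 and 11. The class of highest level was the same on both days for 32 of the 39. COL15A1, COL18A1, HSPG2, FMOD, PRELP, TNC and TIMP3 had another class highest on day 12. COL15A1, a basement membrane collagen of vessels and muscle, went from 468.7 CPM in stromal-like cells on day 9 to a highest level of 266.1 CPM in blood endothelial-like cells on day 12, where T or NK cell-like cells held 17.1 CPM.

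MGP, matrix Gla protein, an inhibitor of calcification, was highest in smooth muscle or pericyte-like cells on both days, at 2268 and 2621 CPM, against 49.7 and 69.6 CPM in T or NK cell-like cells. Within that class the cluster with the most contractile markers held more of it than the other cluster on each day (4755 against 190.4 CPM on day 9, 5768 against 341.7 CPM on day 12). BGN, biglycan, a proteoglycan of the decorin family, had 774.8 and 1163 CPM there, against 149.7 and 81.8 CPM in stromal-like and 20.4 and 7.06 CPM in T or NK cell-like cells. POSTN, periostin, was also highest there, at 61.9 and 23.8 CPM, with 0 counts in T or NK cell-like cells. TIMP1, an inhibitor of metalloproteinases, stood at 2824 and 1873 CPM in smooth muscle or pericyte-like cells at 1418 and 1224 CPM in stromal-like cells and at 286.9 and 166.4 CPM in T or NK cell-like cells. TIMP1 was also the member closest to the stromal level in macrophage or monocyte-like cells, at 74.18% on day 9 and 58.98% on day 12.

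TIMP3, the inhibitor that stays bound to the matrix, was above its stromal-like level in 3 other classes on both days. It was at 536.7 CPM on day 9 and 924.8 on day 12 in blood endothelial-like cells, at 607.9 and 603.4 CPM in smooth muscle or pericyte-like cells and at 302.0 and 277.7 CPM in epithelial-like cells. The stromal-like level was 150.3 and 211.5 CPM and the T or NK cell-like level 28.1 and 50.4 CPM. In blood endothelial-like cells, HSPG2 (perlecan) was at 282.1 and 355.4 CPM and COL4A2 at 203.3 and 417.6 CPM, with T or NK cell-like levels of 63.8 and 55.5 CPM and of 40.8 and 50.4 CPM. LAMA1, the laminin chain of early embryonic basement membranes, had at most 11 counts in any endometrial class.

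In stromal-like cells, 7 of 38 members at 5 CPM or more on a day were 2-fold or more higher on day 12 and 7 were 2-fold or more lower. Of all 10093 genes at that level, 6.92% were as much higher and 9.02% as much lower, so both member counts were a larger share, though TNC passed 5 CPM on day 9 alone and so had to be lower. Members were listed with earlier results of these data known, and the counts are a description. The median log2 ratio was -0.04 over members and -0.10 over all genes. The other 24 members, with all 5 fibrillar collagens, LUM (lumican, 3786 and 4405 CPM), MMP2 (gelatinase A, 1901 and 1742 CPM) and MMP14 (its membrane activator, 346.6 and 347.3 CPM), lay between.

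**Figure D2:**
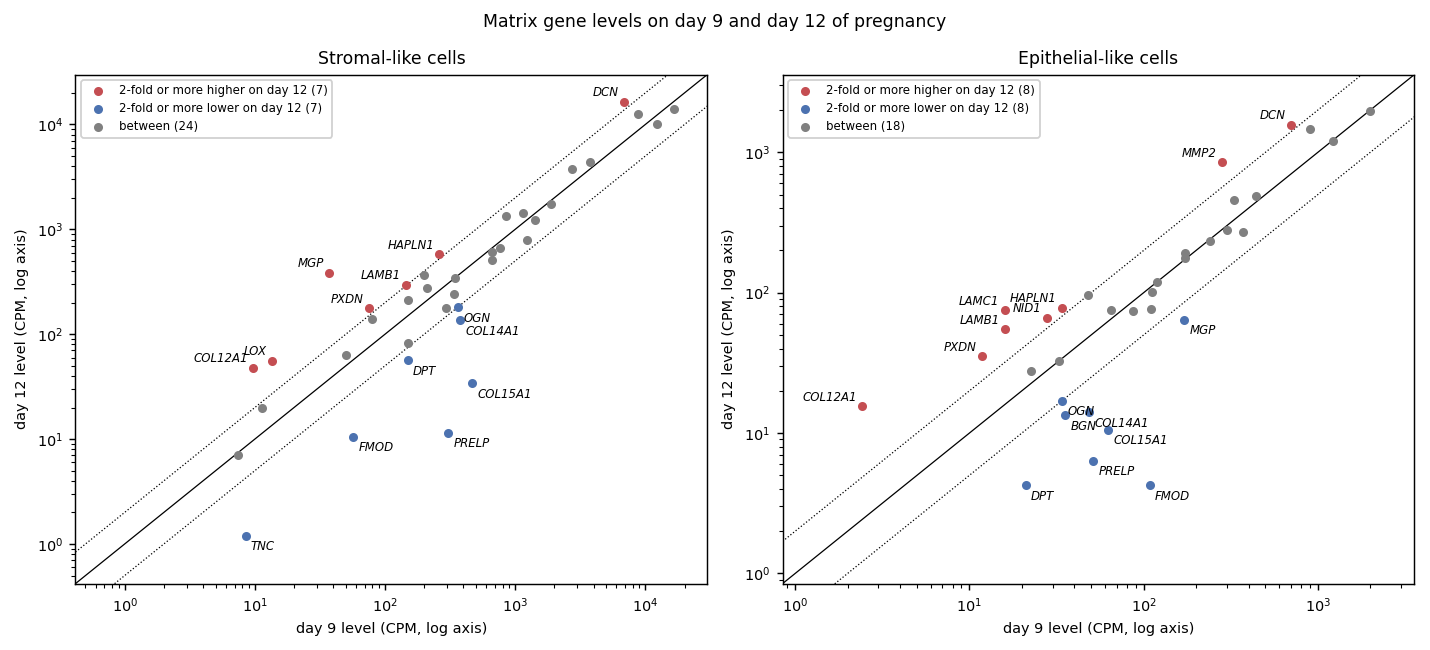
Day 12 level against day 9 level of each member at 5 CPM or more on a day in stromal-like and epithelial-like cells, both axes in CPM on log scales, 1 point per member with dotted lines at a 2-fold difference. In stromal-like cells PRELP (304.9 and 11.5 CPM) and COL15A1 (468.7 and 33.9 CPM) lie farthest below the lines and MGP (37.4 and 386.8 CPM) farthest above.

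The largest ratio towards day 12 belonged to MGP (chromosome 5, 57665272 to 57669360), at 37.4 CPM (489 counts) on day 9 and 386.8 on day 12 (5165 counts), 10.3-fold higher (95% interval 9.43 to 11.4). The day 9 level was under the 49.7 CPM of T or NK cell-like cells, so it was at background, and the day 12 level was above their 69.6 CPM. All 5 day 12 stromal-like clusters, from 158.6 to 3574 CPM, were above all 3 of day 9, from 35.1 to 39.3 CPM. The highest cluster held 159 cells. COL12A1, a collagen on fibril surfaces, was 4.92-fold higher (9.71 and 47.8 CPM, interval 4.06 to 6.003) and LOX, lysyl oxidase, which crosslinks collagen and elastin, 4.12-fold higher (13.5 and 55.8 CPM, 3.50 to 4.89). T or NK cell-like cells held 1.28 and 2.02 CPM of COL12A1, and 0 counts and 5.04 CPM of LOX. PXDN, peroxidasin, which crosslinks collagen IV, was 2.35-fold higher, HAPLN1, which links versican to hyaluronan, 2.21-fold, and LAMB1, a laminin chain, 2.04-fold.

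DCN, decorin (chromosome 5, 91678601 to 91713925), was at 6816 CPM on day 9 and 16501 on day 12, 2.42-fold higher (95% interval 2.40 to 2.44). The 3 day 9 clusters lay between 6302 and 7183 CPM and the 5 day 12 clusters between 14411 and 17377 CPM, without overlap. LUM lies 34945 bases from DCN on the same chromosome and was 1.16-fold higher. DCN was also 2-fold or more higher in epithelial-like (2.25-fold), macrophage or monocyte-like (2.22-fold), T or NK cell-like (2.02-fold) and B or plasma cell-like cells (2.30-fold). These classes held it at 448.2 to 936.6 CPM on day 9 and 1031 to 2082 CPM on day 12, near the background share of the stromal level. Proteoglycans with the linker protein made up 1.179% of stromal-like UMIs on day 9 and 2.1836% on day 12, while fibrillar collagens made up 3.9103% and 3.7881%.

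PRELP (chromosome 9, 64190978 to 64207008), a proteoglycan that anchors basement membranes to connective tissue, was at 304.9 CPM on day 9 and 11.5 on day 12, 26.4-fold lower (95% interval 22.5 to 31.3). COL15A1 (chromosome 1, 240718128 to 240829188) was 13.8-fold lower (12.6 to 15.2). For both genes and for TNC the ranges of the day 9 and day 12 stromal-like clusters did not overlap. TNC, tenascin C, a glycoprotein of remodelling tissue, was 7.08-fold lower (8.48 and 1.198 CPM), and its 16 counts of day 12 lay under the T or NK cell-like level of 6.05 CPM. FMOD, fibromodulin, which binds collagen fibrils and neighbours PRELP at a distance of 117124 bases, was 5.41-fold lower (56.7 and 10.48 CPM). COL14A1, a fibril-surface collagen of quiet connective tissue, was 2.75-fold lower (374.7 and 136.1 CPM). DPT, dermatopontin, which speeds fibril assembly, was 2.65-fold lower (149.3 and 56.2 CPM) and OGN, osteoglycin, 2.002-fold lower (363.1 and 181.3 CPM). For these last 4 genes clusters of the 2 days overlapped.

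**Figure D3:**
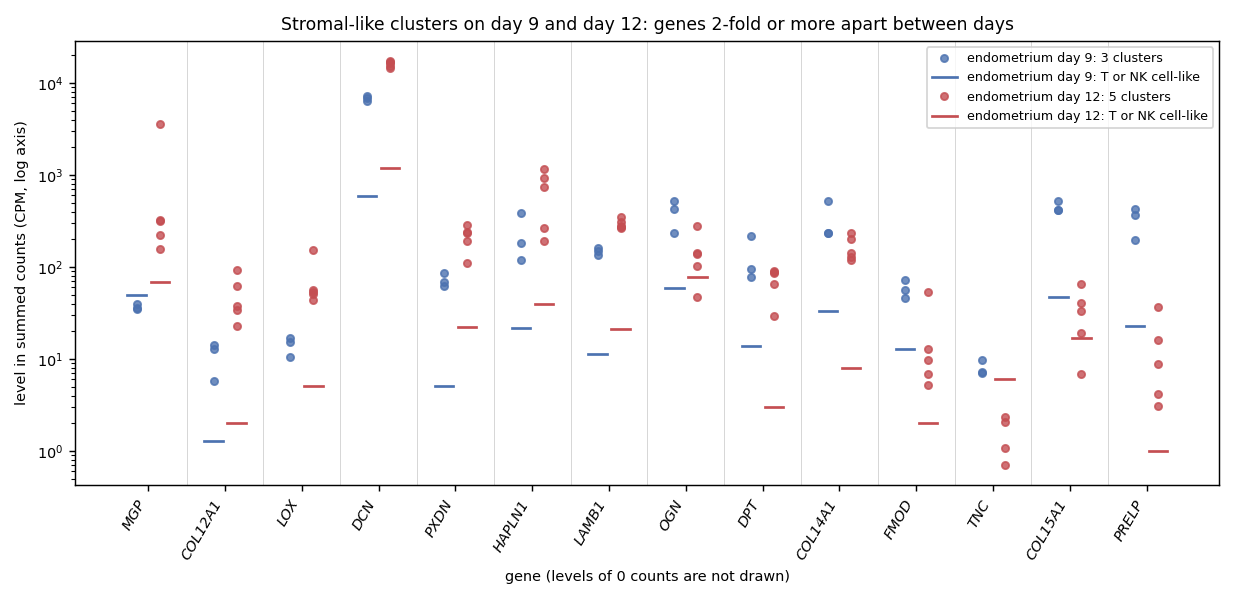
CPM on a log scale (vertical axis) of the 14 members called 2-fold higher or lower in stromal-like cells (horizontal axis). Dots are the 3 day 9 and 5 day 12 stromal-like clusters, horizontal bars the level in T or NK cell-like cells of the same library, and levels of 0 counts are not drawn; the DCN dots of the days stand apart (6302 to 7183 and 14411 to 17377 CPM), while those of HAPLN1 overlap (118.1 to 389.8 and 189.9 to 1169 CPM).

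The basement membrane genes of stromal-like cells did not move together. COL4A2 was 1.33-fold higher on day 12 (209.4 and 278.4 CPM), and the entry linked to COL4A1 3.003-fold higher (415.5 and 1248 CPM, interval 2.91 to 3.10). The COL4A1 and COL4A2 genes overlap by 525 bases at their starts, and the sources used here do not give whether counting used the strand. NID1, nidogen 1, was 1.84-fold and LAMC1, a laminin chain, 1.77-fold higher. COL18A1, the collagen that holds endostatin, was 1.55-fold lower (1230 and 794.9 CPM), and HSPG2 1.39-fold lower. Of 77 other listed matrix genes at 5 CPM or more, 8 were 2-fold or more higher and 20 lower. EFEMP1 (an elastic fibre protein, 4.36-fold) and the proteases ADAMTS1 (2.75-fold, 262.2 and 722.0 CPM) and ADAMTS5 (2.55-fold) were the highest, and SPOCK1 (15.5-fold), GPC1 (4.66-fold) and SMOC2 (4.39-fold, 899.1 and 205.0 CPM) the lowest.

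In epithelial-like cells (667 on day 9, 354 on day 12), the members higher on day 12 included MMP2 and 4 basement membrane genes. Of 34 members at 5 CPM or more, 8 were 2-fold or more higher and 8 lower, beside 12% and 16.7% of all 10483 genes. COL12A1 passed the minimum on day 12 alone, with 22 counts, and FMOD and DPT on day 9 alone, so their directions were fixed by it. The median log2 ratio was 0.00 over members and -0.17 over all genes. MMP2, which cuts denatured collagen and collagen IV, was at 280.5 CPM on day 9 and 849.3 on day 12, 3.03-fold higher (95% interval 2.79 to 3.29). T or NK cell-like cells were at 198.9 and 196.6 CPM and stromal-like cells at 1901 and 1742 CPM. Both day 9 epithelial-like clusters (257.8 and 310.2 CPM) were below all 3 of day 12 (535.5 to 1377 CPM). The highest of these held 19 cells and the largest 276.

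LAMC1 was 4.69-fold higher in epithelial-like cells (15.9 and 74.7 CPM, interval 3.41 to 6.47), LAMB1 3.45-fold (15.9 and 54.98 CPM, 2.45 to 4.86), PXDN 2.98-fold and NID1 2.38-fold. T or NK cell-like cells held LAMC1 at 3.83 and 15.1 CPM, LAMB1 at 11.5 and 21.2 CPM, PXDN at 5.10 and 22.2 CPM and NID1 at 20.4 and 36.3 CPM. When each cell was weighted equally, the log2 ratio of NID1 was 0.73, under the 2-fold line. HAPLN1 was 2.31-fold higher (33.8 and 78.2 CPM), at 12.91% and 13.49% of the stromal-like level, where T or NK cell-like cells held 8.28% and 6.78%. Stromal-like HAPLN1 was also higher on day 12. Epithelial-like clusters of the days overlapped for NID1 and HAPLN1.

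FMOD was at 108.2 CPM (448 counts) in day 9 epithelial-like cells, its highest class of that day, and at 4.23 CPM (6 counts) on day 12, 25.6-fold lower (95% interval 11.7 to 70.1). Of the 2 day 9 clusters, 1 was at 174.4 CPM and the other at 21.2 CPM, and T or NK cell-like cells were at 12.8 and 2.02 CPM. MGP was 2.65-fold lower (170.1 and 64.1 CPM), with day 12 under the T or NK cell-like 69.6 CPM. PRELP (8.07-fold), COL15A1 (5.94-fold), DPT (4.97-fold), COL14A1 (3.46-fold), BGN (2.65-fold) and OGN (2.01-fold) were lower as well. Their day 9 levels ran from 9.38% (OGN) to 23.72% (BGN) of the stromal-like levels. T or NK cell-like cells held 16.16% for OGN and 13.63% for BGN. Epithelial-like PRELP (16.8%) was also above its T or NK cell-like share (7.53%). So were COL15A1, DPT and COL14A1, at 13.02% to 14.08% against 8.85% to 10.07%. The T or NK cell-like shares of BGN and PRELP rest on 16 and 18 counts. Epithelial-like clusters of the 2 days overlapped for FMOD, MGP and OGN and not for the other 5 lower members.

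Among 69 other listed matrix genes in epithelial-like cells, 9 were 2-fold or more higher and 15 lower. LAMB3, a laminin chain of epithelial anchoring structures, was 49.0-fold higher (2.17 and 106.4 CPM, interval 25.1 to 109). P3H1, which hydroxylates collagen prolines, was 6.96-fold higher (106.3 and 739.4 CPM). MFAP5, a microfibril protein, was 14.4-fold lower (131.9 and 9.16 CPM), LOXL2 4.04-fold and SMOC2 3.78-fold lower.

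Blood endothelial-like cells numbered 175 on day 9 and 809 on day 12. Of 38 members, 6 were 2-fold or more higher and 7 lower, beside 5.36% and 9.39% of all 9843 genes. LOX passed 5 CPM on day 12 alone and PRELP, POSTN and FMOD on day 9 alone, so their directions were fixed by the minimum and nothing is read from the counts. The median log2 ratio was 0.04 over members and -0.12 over all genes. COL4A2 was 2.05-fold higher (95% interval 1.802 to 2.35) and the COL4A1-linked entry 2.46-fold (527.3 and 1297 CPM). TIMP3 was 1.72-fold higher. PXDN (2.06-fold), MGP (2.06-fold), HAPLN1 (2.14-fold) and COL12A1 (2.02-fold) stood at the line. MGP (33.1 and 68.4 CPM) was under the T or NK cell-like 49.7 and 69.6 CPM on both days, and HAPLN1, at 9.03% and 8.72% of the stromal-like level, was near the T or NK cell-like 8.28% and 6.78%, so both were read as background. COL12A1 was at 1.28 and 2.02 CPM in T or NK cell-like cells, and PXDN at 5.10 and 22.2 CPM. LOX had 0 counts on day 9 and 6.15 CPM on day 12, 2.60-fold higher against a floor of 3 counts. The higher calls were 1 instead of 6 with finer clusters, and 3 with at least 2000 UMIs per cell or without the cells of highest doublet scores, where 12 members were lower.

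BGN was 4.06-fold lower in blood endothelial-like cells (96.2 and 23.7 CPM, interval 3.10 to 5.32), PRELP 23.5-fold (53.6 and 2.28 CPM), POSTN 18.2-fold and FMOD 9.51-fold lower. DPT (3.46-fold), COL14A1 (2.34-fold) and TNC (2.20-fold) completed the 7. BGN was at 20.4 and 7.06 CPM in T or NK cell-like cells, and their day 9 levels of FMOD (12.8 CPM), DPT (14.0 CPM) and COL14A1 (33.2 CPM) were near the endothelial 17.3, 17.3 and 34.7 CPM. COL6A3 and LUM were 1.92-fold and 1.75-fold lower. COL15A1 was at 308.2 and 266.1 CPM, 1.16-fold lower. Of 78 other listed matrix genes, 4 were 2-fold or more higher and 23 lower. SPOCK2 (5.23-fold), the membrane collagen COL13A1 (3.28-fold) and the protease MMP28 (2.34-fold) were the highest. The protease MMP7 (25.2 CPM and 0 counts, 36.9-fold against a floor of 3 counts), SPOCK1 (13.1-fold) and HMCN1 (12.8-fold) were the lowest.

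In smooth muscle or pericyte-like cells (568 and 393), 3 of 39 members were 2-fold or more higher and 5 lower, beside 9.14% and 8.93% of 10159 genes, so the higher members were no larger a share than all genes. PXDN was 2.46-fold (54.1 and 132.8 CPM), LOX 2.40-fold and COL4A2 2.20-fold higher (220.9 and 486.5 CPM, interval 1.90 to 2.56), with T or NK cell-like levels of 40.8 and 50.4 CPM for COL4A2. SPARC, which binds collagen, was 1.70-fold, VCAN 1.79-fold and LAMC1 1.62-fold higher. DPT was 10.1-fold lower (110.5 and 10.9 CPM, 5.50 to 20.8, against 14.0 and 3.02 CPM in T or NK cell-like cells), FMOD 4.29-fold, COL14A1 2.96-fold, POSTN 2.60-fold and PRELP 2.21-fold lower. The median log2 ratio was 0.00 over members and -0.02 over all genes. Among 81 other listed genes, 9 were higher and 10 lower, with COL5A3 (3.29-fold), HAPLN3 (2.95-fold) and ECM1 (2.90-fold) at 1 end and SMOC2 (4.30-fold), GPC3 (3.71-fold) and EFEMP1 (3.02-fold) at the other.

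Some members also differed 2-fold or more between the days in the immune classes. The T or NK cell-like level is itself the background reference, and levels near the background share are not read as expression by immune cells. T or NK cell-like cells had 3 members higher and 6 lower of 35 (all genes 8.8% and 13.4%). Macrophage or monocyte-like cells had 2 and 7 of 35 (7.4% and 11.6%) and those named B or plasma cell-like 5 and 6 of 33 (17.1% and 12.5%). The higher members were in no immune class a larger share than all genes, while the lower members were a larger share in each. DCN was among the higher in all 3, and COL14A1, COL15A1, FMOD, PRELP and DPT among the lower in all 3. FMOD, PRELP and DPT passed 5 CPM on day 9 alone in T or NK and in B or plasma cell-like cells, as did COL15A1 in the latter. LAMC1 passed it on day 12 alone in T or NK cell-like cells. These directions were fixed by the minimum, so nothing is read from the counts or from their agreement over classes. In macrophage or monocyte-like cells PRELP was 41.7-fold (2 counts on day 12, 95% interval 11.098 to 351), COL15A1 6.59-fold, DPT 3.73-fold, COL14A1 3.62-fold and BGN 3.42-fold lower. LAMC1 (1.63-fold), HAPLN1 (1.61-fold), LAMB1 (1.504-fold) and NID1 (1.396-fold) followed DCN on the higher side. In T or NK cell-like cells PRELP was 22.8-fold (1 count on day 12, 3.60 to 949), COL14A1 4.11-fold, BGN 2.89-fold, COL15A1 2.75-fold (47.2 and 17.1 CPM) and TIMP1 1.72-fold lower, and PXDN 4.35-fold, LAMB1 1.85-fold, HAPLN1 1.81-fold and TIMP3 1.797-fold higher. PRELP, COL15A1, DPT and COL14A1 were also 2-fold or more lower in stromal-like cells of the same libraries, and comparisons that share libraries are not independent. In B or plasma cell-like cells PRELP went from 27.4 CPM to 0 counts, 8.31-fold lower against a floor of 3 counts (95% interval from 6.25-fold). COL15A1 was 7.79-fold, MMP14 2.54-fold, FBLN2 1.71-fold and TIMP1 1.63-fold lower there, and PXDN 2.41-fold, LAMB1 2.28-fold and NID1 2.11-fold higher. These cells held MGP at 135.7 and 310.8 CPM, 2.29-fold higher, and the day 12 value was 80.34% of the stromal-like level. Of the other listed matrix genes, 5 of 66 were 2-fold or more higher and 14 lower in T or NK cell-like cells (ECM1 5.53-fold, THBS1 2.16-fold and LAMC3 1.75-fold higher, GPC1 12.7-fold, SMOC2 5.22-fold and COL16A1 3.50-fold lower). In macrophage or monocyte-like cells 4 of 67 were higher and 23 lower (MATN2 2.58-fold, ADAMTS1 2.38-fold and PLOD3 1.60-fold higher, GPC1 4.66-fold, SMOC2 4.54-fold and COL4A5 3.83-fold lower). In B or plasma cell-like cells 4 of 57 were higher and 13 lower (SDC2 3.45-fold, ADAMTS1 3.40-fold and LTBP1 2.53-fold higher, P4HA2 6.23-fold, SMOC2 3.38-fold and COL16A1 2.89-fold lower).

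In the embryo, hypoblast-like cells (4468 on day 9, 2526 on day 12) held the basement membrane genes. On day 9 all 15 members at 5 CPM or more in a class of at least 50 cells had their highest level there. COL18A1 was at 1487 CPM on day 9 and 1060 on day 12. The laminin chains LAMA1, LAMB1 and LAMC1, which join into a cross-shaped trimer, were at 374.6, 249.0 and 387.2 CPM on day 9 and at 436.6, 181.0 and 521.8 CPM on day 12. NID1 was at 322.0 and 260.3 CPM and COL4A2 at 288.6 and 337.8 CPM. Levels of LAMA1, LAMC1, PXDN and VCAN in the embryo's highest class were above those in the endometrium's highest class on both days, and the tissues were dissociated with different enzymes.

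Trophectoderm-like cells (652 on day 9, 3248 on day 12) held the same members at lower levels. On day 9 their level was a median of 13.71% of the hypoblast-like level over 13 members at 50 CPM or more, with a range from 10.23% for NID1 to 24.34% for VCAN. On day 12 the median was 13.04% over 15 members, and the range ran from 8.44% for HAPLN1 to 56.82% for MMP14. COL18A1 was at 235.2 and 138.2 CPM in trophectoderm-like cells. In day 9 embryo barcodes under 100 UMIs, which hold too little RNA to be cells, COL18A1 was at 1270 CPM, against 1438 CPM over kept cells. COL18A1 was also at 1230 CPM in day 9 stromal-like cells. LAMA1, at most 3.15 CPM in the endometrial classes, was at 289.4 CPM in these barcodes and 354.6 CPM over kept cells. Free RNA of hypoblast type was thus present. The part of that RNA in the trophectoderm-like levels was not tested.

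Interstitial collagens were near 0 in the day 9 embryo. Over 56049697 UMIs of hypoblast-like cells, COL1A1 had 6 counts, COL1A2 5, COL3A1 3 and LUM 2. COL6A2, COL6A3, COL14A1, COL15A1, PRELP, DPT and POSTN had 0 counts in these cells, which allows up to 0.0535 CPM for each. Without cells whose barcode was kept in another library, COL1A1 had 3 counts and COL3A1 none.

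Extraembryonic mesoderm-like cells, found as a cluster of 199 cells in the day 12 embryo, had the highest level of 13 of the 30 members at 5 CPM or more in some day 12 embryo class. All 5 fibrillar collagen genes were among the 13. COL3A1 was at 85.5 CPM (317 counts, 95% interval 76.3 to 95.4), 81.4 times the next class (22.4 to 675), and 87.33% of its counts in the library came from these cells. COL1A1 was at 46.4 CPM (39.7 to 53.9, 82.69% of library counts), COL5A1 at 102.5 CPM (92.4 to 113.3), COL5A2 at 39.6 CPM and COL1A2 at 19.4 CPM. LUM was at 22.7 CPM and DCN at 26.4 CPM, against at most 0.208 and 0.525 CPM in the other classes. COL12A1 was at 16.2 CPM and TNC at 27.0 CPM. Leaving out the 8 cells with barcodes kept elsewhere gave 47.7 CPM for COL1A1 and 85.8 CPM for COL3A1.

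HAPLN1 was at 376.4 CPM in mesoderm-like cells, 1.45 times the hypoblast-like level (95% interval 1.37 to 1.53), SPARC at 345.7 CPM, 2.70 times (2.53 to 2.87), and TIMP1 at 160.2 CPM, 2.5 times (2.27 to 2.74). COL6A1, COL6A2, COL6A3, PRELP, COL15A1 and DPT had 0 counts there, where the floor of 3 counts would be 0.809 CPM. The mesoderm-like fibrillar collagen levels were far under those of stromal-like cells, where COL1A1 was at 12221 and 10194 CPM. For the 15 members at 50 CPM or more in hypoblast-like cells, the mesoderm-like level had a median of 39.48% of the hypoblast-like level. Such a cluster was named on day 12 alone, so these cells could not be compared between days.

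**Figure D4:**
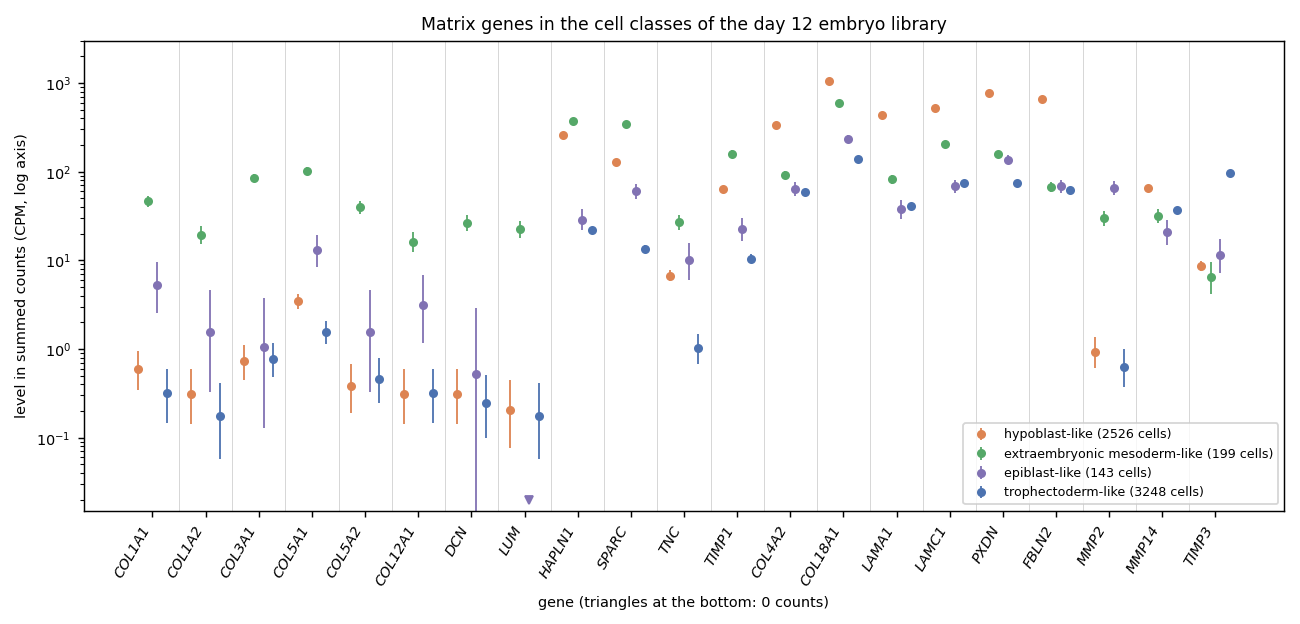
CPM on a log scale (vertical axis) of 21 members (horizontal axis) in the 4 named classes of the day 12 embryo; points are class levels and bars their 95% Poisson intervals, which cover counting error only. Mesoderm-like cells stand above the other classes for the fibrillar collagens (COL3A1 at 85.5 CPM against at most 1.05 CPM), and trophectoderm-like cells for TIMP3 (97.9 CPM against at most 11.5 CPM).

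MMP2 was highest in epiblast-like cells, at 65.6 CPM (125 counts, interval 54.6 to 78.2) in 143 cells on day 12, against 29.9 CPM in mesoderm-like, 0.936 CPM in hypoblast-like and 0.635 CPM in trophectoderm-like cells. In the 21 epiblast-like cells of day 9 it was at 93.8 CPM (30 counts, 63.3 to 133.9). BGN (7.87 CPM), FMOD (17.8 CPM) and OGN (9.97 CPM) had low levels in day 12 epiblast-like cells, from 15, 34 and 19 counts. BGN and OGN there did not differ from mesoderm-like cells beyond counting error (mesoderm-like to epiblast-like ratios 0.856, 0.434 to 1.75, and 0.676, 0.357 to 1.30), and FMOD was at 14.9 CPM in hypoblast-like cells.

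Between days, hypoblast-like cells had 8 of 19 members 2-fold or more higher on day 12 and 0 lower, beside 12.9% and 10.5% of all 8237 genes. The count of higher members was a larger share than among all genes, but 4 of the 8 (BGN, FMOD, TNC and TIMP3) passed the minimum of 5 CPM on day 12 alone and so had to be higher. OGN, under that minimum on both days and so not counted, was 3.28-fold lower (interval 2.37 to 4.64). It was at 4.89 CPM (274 counts) on day 9 and 1.49 CPM (43 counts) on day 12. The count of 0 lower members therefore holds at this minimum only. The median log2 ratio was 0.78 over members and -0.16 over all genes. With no replicates no tool was run and no unadjusted p exists for the count of 0.

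**Figure D5:**
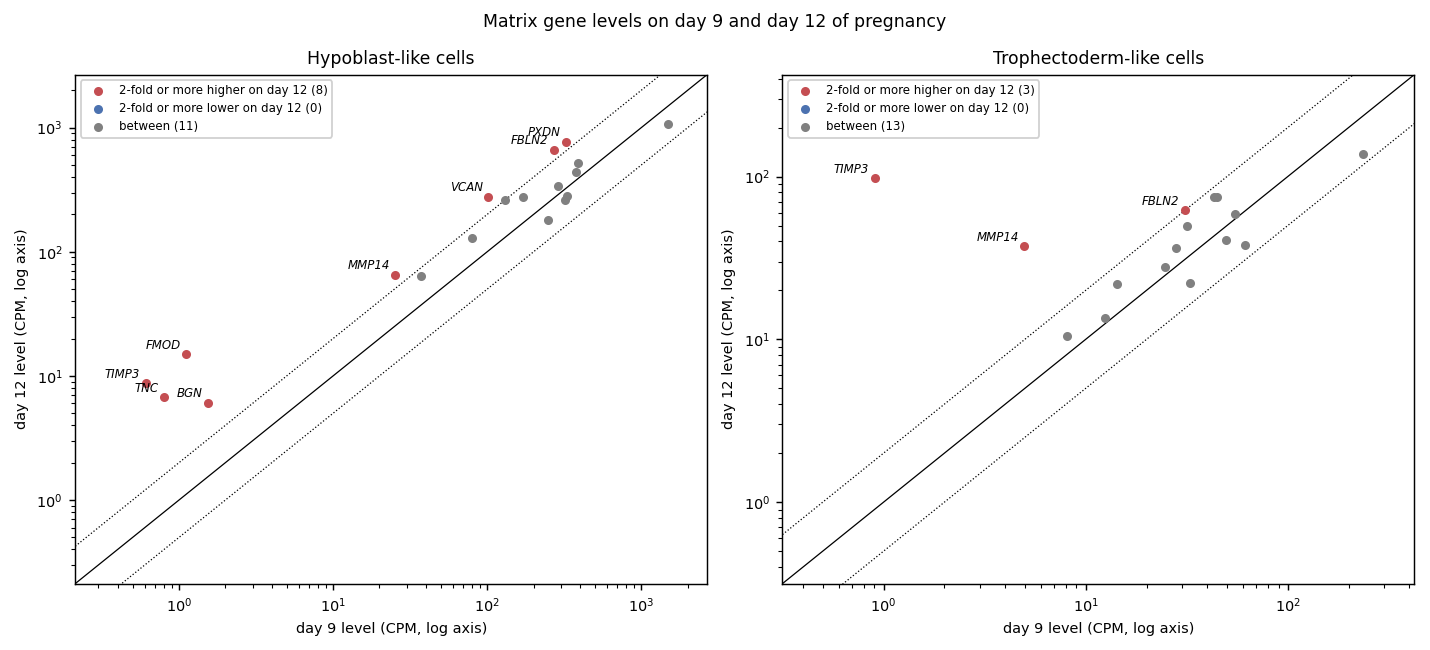
Day 12 level against day 9 level of each member at 5 CPM or more on a day in hypoblast-like and trophectoderm-like cells, both axes in CPM on log scales, 1 point per member with dotted lines at a 2-fold difference. TIMP3 lies farthest above the lines in both panels (0.607 and 8.73 CPM in hypoblast-like, 0.903 and 97.9 CPM in trophectoderm-like cells), and no member at that minimum level lies below them.

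VCAN, versican, the large hyaluronan-binding proteoglycan, was at 102.0 CPM on day 9 and 278.1 on day 12 in hypoblast-like cells, 2.73-fold higher (95% interval 2.64 to 2.82). All 3 day 12 clusters (253.5 to 303.5 CPM) were above all 5 of day 9 (79.3 to 154.1 CPM). HAPLN1, which lies 45820 bases from VCAN and whose product ties versican to hyaluronan, was 1.99-fold higher (131.0 and 260.0 CPM, 1.92 to 2.05), and its clusters overlapped. PXDN was 2.37-fold (324.3 and 769.9 CPM), FBLN2, fibulin 2, 2.45-fold (270.6 and 663.8 CPM) and MMP14 2.58-fold higher (25.3 and 65.5 CPM). Clusters of the days overlapped for these 3. With both days clustered together, which left 110 day 12 hypoblast-like cells, their log2 ratios were -0.51, 0.15 and 0.46, so these 3 calls rest on which cells are called hypoblast-like. In that setting 5 members were 2-fold or more lower, LAMA1 (log2 ratio -2.19) among them.

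TIMP3 was 14.4-fold higher (34 and 252 counts, 95% interval 10.0 to 21.2), FMOD 13.5-fold (1.11 and 14.9 CPM), TNC 8.37-fold (0.803 and 6.72 CPM) and BGN 3.93-fold (1.55 and 6.098 CPM). The cluster ranges of the days did not overlap for these 4. FMOD was at 107.3 CPM in a day 12 cluster of 113 cells and at 6.003 CPM in the lowest of the other 2. COL18A1 was 1.40-fold lower, LAMB1 1.38-fold, NID1 1.24-fold and FBLN1, fibulin 1, 1.17-fold lower, while LAMA1 was 1.17-fold and LAMC1 1.35-fold higher. The laminin chains thus did not share a direction. COL4A2 was 1.17-fold and the COL4A1-linked entry 1.44-fold higher (549.4 and 790.1 CPM).

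Of 43 other listed matrix genes in hypoblast-like cells, 14 were 2-fold or more higher and 1 lower. LOXL2, a crosslinking oxidase that acts on collagen IV, was 39.4-fold higher (2.69 and 106.2 CPM, 33.5 to 46.7), the cell-surface proteoglycans SDC1 28.4-fold (6.74 and 191.3 CPM) and GPC1 4.54-fold higher. SPOCK2 was 3.79-fold (26.7 and 7.03 CPM), MFAP5 1.75-fold and P3H1 1.70-fold lower (834.6 and 489.5 CPM).

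In trophectoderm-like cells, 3 of 16 members were 2-fold or more higher and 0 lower, beside 31.6% and 10.9% of all 7773 genes, so members were not a larger share than all genes. The class also had a median mitochondrial share of 0.547% of UMIs on day 9 and 3.633% on day 12, and median UMIs of 5700 and 8218.5, and the part of these in the ratios was not tested. The median log2 ratio was 0.37 over members and 0.33 over all genes. TIMP3 (chromosome 5, 12185816 to 12242599) had 4 counts on day 9 (0.903 CPM, 95% interval 0.246 to 2.31) and 2776 counts on day 12 (97.9 CPM, 94.3 to 101.6), 108-fold higher (42.3 to 398). The 3 day 12 clusters ranged from 26.7 to 110.9 CPM, all above the day 9 cluster. TIMP3 was the member with its highest day 12 embryo level in this class, 11.5 CPM being the next highest, in epiblast-like cells. MMP14 was 7.49-fold higher (22 and 1055 counts, 4.97 and 37.2 CPM, 4.92 to 12.0). TIMP3 and MMP14 passed 5 CPM on day 12 alone.

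FBLN2 stood at the line in trophectoderm-like cells, 2.01-fold higher (30.9 and 62.1 CPM), and its log2 ratio was -0.10 with both days clustered together and -0.11 with day 9 cells called at 1000 UMIs. LAMC1 was 1.75-fold and PXDN 1.67-fold higher, and COL18A1 1.70-fold, FBLN1 1.61-fold, NID1 1.49-fold and LAMA1 1.21-fold lower. COL4A2 was 1.07-fold higher. With both days clustered together the log2 ratios of LAMC1, PXDN and COL4A2 were -0.42, -0.18 and -0.70, and with a median of ratios scaling that of LAMA1 was 0.006. Of 30 other listed matrix genes, 13 were higher and 1 lower. LAMA3, the alpha chain of epithelial laminin, had 0 counts on day 9 and 37.1 CPM on day 12, at least 54.7-fold higher. TIMP4 was 33.0-fold (1.13 and 37.3 CPM) and the membrane protease MMP15 30.6-fold higher (0.903 and 27.6 CPM). LAMB3, a partner chain of LAMA3, was 15.3-fold lower (63.0 and 4.13 CPM, 12.3 to 19.1). P3H1 was 1.67-fold lower and SERPINH1, the collagen chaperone, 1.49-fold lower.

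LAMB3 was thus lower on day 12 in trophectoderm-like cells and higher in endometrial epithelial-like cells, from separate pairs of libraries, and the difference between tissues was not tested. The remaining members were low throughout. FBN1, fibrillin 1, was at most 19.9 CPM in any named class, in day 12 stromal-like cells. POSTN was at most 4.04 CPM in the named embryo classes and at most 61.9 CPM in endometrial classes.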

How the data were processed

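Single-cell libraries of pig embryo and endometrium (1 per group) were prepared in droplets with a 3' kit, as the labels' protocols state. The authors deposited raw UMI counts by gene and barcode. The submitters' processing notes name Cell Ranger 6.1.2 and Sscrofa11.1; per the file headers, the day 9 embryo was made with Cell Ranger 4. That library holds 657829 barcodes, so its cells were called here at 2759.47 UMIs, 0.1 of percentile 99 among the 3000 largest totals. The sources used here do not give how the submitters chose cells.

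Cells under 1000 UMIs or 500 genes, or with over 20% of UMIs from mitochondrial genes, were left out. Doublets marked by Scrublet (scanpy 1.11.5), 1, 93, 0 and 0 by library, were removed. Libraries were clustered separately, without members or other listed matrix genes, on 2000 variable genes and 30 components with 15 neighbours (Leiden, resolution 0.6). A class needed 3 high markers, at 0.5 or more of the highest cluster level. A class with 3 or more markers among the 50 leading genes came first. Clusters stayed unnamed when another class had more markers among their 10 leading genes, when an unrelated class had a larger share of its markers high, or when UMIs were low with no own leading marker. Of 199 markers, 172 matched.

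Counts were summed per class and scaled to CPM, with exact Poisson intervals; ratios of day 12 to day 9 have exact binomial intervals. A member was called at 2-fold, at 5 CPM or more on a day, in classes of 50 cells or more on both days; zeros were set to a floor of 3 counts. Ratios and intervals were tested on simulated data. Named members are the 5 highest and 5 lowest ratios per class at 20 CPM or more, and 3 and 3 of the other listed genes (1 of these is not reported here); members outside it were chosen after their values were seen. Members and lists were chosen with earlier results of these data known. Positions and neighbours come from RefSeq on Sscrofa11.1. Alternatives were another scaling, other cell and doublet filters, other clusterings, equal cell weights, no minimum level, a lower call of day 9 embryo cells, and, chosen after seeing the data, a looser naming rule and leaving out barcodes kept in another library. No sequences are shown.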

Additional observations from a re-analysis of the deposited data

Results flagged for a closer look

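Of the members whose day 12 to day 9 ratio had opposite directions in different classes, 4 were flagged. Others had them too. FBLN2 and MMP14 were 2-fold or more higher in hypoblast-like cells. FBLN2 was as much lower in macrophage or monocyte-like cells and MMP14 in B or plasma cell-like cells. None of these differences was tested, because each group holds 1 library. BGN had a log2 ratio of 1.97 in hypoblast-like and -2.02 in blood endothelial-like cells, a difference of 4.00. FMOD had 3.75 in hypoblast-like and -4.68 in epithelial-like cells, a difference of 8.43. TNC had 3.07 in hypoblast-like and -2.82 in stromal-like cells, a difference of 5.89, with no count above 200 in either class on either day. MGP had 3.37 in stromal-like and -1.41 in epithelial-like cells, a difference of 4.78, and its day 9 stromal-like and day 12 epithelial-like levels were at or under the level in T or NK cell-like cells.

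TIMP1 was at 13178 CPM in an unnamed cluster of 20 cells of the day 12 embryo, whose leading genes were S100A2, SPINK9, THY1, CDSN and B2M. The highest level in a named embryo class was 160.2 CPM. An epithelial-like cluster of 19 cells in the day 12 endometrium, with SPINK9 and CDSN also among its leading genes, held TIMP1 at 1393 CPM.

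In the day 9 embryo, 506868 barcodes had under 100 UMIs and together 1347556 UMIs, and no comparison used them. In these barcodes COL1A1 was at 730.2 CPM, COL3A1 at 799.2 CPM and DCN at 739.9 CPM, against 0.109, 0.0969 and 0.3999 CPM over the kept cells of the same library. Of the 3797 barcodes with a UMI of COL1A1, COL1A2, COL3A1, DCN or LUM, 29.918% were kept cell barcodes of the day 9 endometrium and 39.004% of the day 12 endometrium, where 1.462% and 1.631% of all 506868 barcodes were. The share that were kept cell barcodes of the day 12 embryo was 0.895%, against 0.909% of all. For the 2048 barcodes with a UMI of COL18A1 or LAMC1 the endometrial shares were 2.93% and 3.223%. Both genes were high in hypoblast-like cells and also present in stromal-like cells. The sources used here do not give which libraries shared a sequencing run, and a source of this RNA was not tested.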

How the results depend on the processing

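Of 60 named ratios, 42 were of 2-fold or more, and 30 of these stayed at 2-fold or more under all 11 alternatives. No paired analysis was possible because each group holds 1 library, and for the same reason no replicate could be left out. Joint clustering of both days left 110 day 12 hypoblast-like cells and gave 5 lower members in hypoblast-like and 4 in trophectoderm-like cells, against 0 in both; there PXDN reversed to -0.51 (log2) in hypoblast-like and FBLN2 to -0.10 in trophectoderm-like cells. Calling day 9 embryo cells at 1000 UMIs gave 4 lower members in trophectoderm-like cells and FBLN2 at -0.11. With a median of ratios scaling, which moves all log2 ratios by 0.17 in hypoblast-like and 0.29 in trophectoderm-like cells, 5 members were higher in trophectoderm-like cells. In blood endothelial-like cells the higher members were 3 with at least 2000 UMIs per cell, 3 (with 12 lower and HAPLN1 at -0.026) without the highest 5% of doublet scores, and 1 at resolution 1.2. Without those doublet scores, smooth muscle or pericyte-like cells had 8 lower. With cells weighted equally hypoblast-like cells had 1 lower. With no minimum level hypoblast-like cells had 18 higher and 2 lower and trophectoderm-like cells 9 higher. Depth limits small classes: MMP2 in day 9 epiblast-like cells, at 93.8 CPM, rests on 30 counts. The causes were not tested.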
